A study of Mus musculus with 4 samples.

Results

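The 10 genes described here encode the machinery of V(D)J recombination and of the end joining that completes it: Rag1, Rag2, Dclre1c, Xrcc5, Xrcc6, Prkdc, Dntt, Lig4, Xrcc4 and Nhej1. They were taken by gene symbol from the read counts of 4 RNA-seq libraries, and all 10 were found among 16613 symbols and passed the filter on low counts that left 12123 tested genes. The libraries came from GFP+ cells in the bone marrow of recipient mice, whose donor B220+ marrow cells had been transduced with N-myc, and the labels name them N-myc-induced B-ALL cells (B-cell acute lymphoblastic leukaemia) of the C57BL/6 strain. Donor cells were Anp32b+/+ (wild type) in 2 libraries and Anp32b-/- (knockout) in the other 2, so both genotypes carried N-myc and were grown in transplanted hosts. Neither the age and sex of the animals nor whether the libraries of a genotype came from separate animals is given in the sources used here, so a p-value here reflects the spread among these libraries, which may be technical.

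V(D)J recombination assembles antigen receptor genes in developing lymphocytes. The RAG1-RAG2 recombinase cuts DNA beside receptor gene segments and leaves hairpin-sealed coding ends. The Ku dimer binds the broken ends and recruits the kinase DNA-PKcs, Artemis opens the hairpins, terminal transferase adds untemplated nucleotides, and DNA ligase IV seals the joint with XRCC4 and XLF. The recombinase and terminal transferase are made in immature lymphocytes, whereas the end joining factors act in nearly every cell. In early B cells the recombinase genes are active while heavy and light chain genes are being assembled and are shut down in mature B cells.

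The bases before the RefSeq starts of Rag1, Rag2 and Dntt are shown first, because these 3 genes moved together. Each stretch is 200 bases long, from the RefSeq table of GRCm38.p6, written 5′ to 3′ on the strand of the gene. Capitals mark 4 motifs on either strand. They are E boxes with the letters CANNTG, Ikaros-type motifs with TGGGAA, PU.1-type ETS motifs with GAGGAA, and CCAAT boxes. Rag1 is on the minus strand at chr2:101649533-101649732, Rag2 on the plus strand at chr2:101624512-101624711 and Dntt on the plus strand at chr19:41029075-41029274.
Rag1: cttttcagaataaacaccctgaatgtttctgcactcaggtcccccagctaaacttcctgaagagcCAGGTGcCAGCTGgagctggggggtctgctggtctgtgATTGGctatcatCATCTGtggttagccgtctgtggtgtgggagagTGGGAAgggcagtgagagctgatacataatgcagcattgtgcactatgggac
Rag2: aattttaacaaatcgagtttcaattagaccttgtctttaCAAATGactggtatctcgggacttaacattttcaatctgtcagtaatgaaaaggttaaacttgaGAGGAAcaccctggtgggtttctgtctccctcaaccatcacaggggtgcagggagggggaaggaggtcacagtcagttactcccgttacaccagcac
Dntt: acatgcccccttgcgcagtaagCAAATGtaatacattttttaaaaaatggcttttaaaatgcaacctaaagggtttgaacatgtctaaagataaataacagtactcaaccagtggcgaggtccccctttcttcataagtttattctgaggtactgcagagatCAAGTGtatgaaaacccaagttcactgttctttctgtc

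Rag1, Rag2 and Dntt, grouped here by their falls, had lower CpG ratios than the other members with a window. In the 300-base windows of the table (250 bases before the start to 50 after), the observed over expected CpG ratio was 0.165 for Rag1, 0.216 for Rag2 and 0.149 for Dntt. It ran from 0.505 (Dclre1c) to 1.04 (Xrcc6) over the windows of the other 6 genes that the table holds, and its median over 32841 windows of all genes was 0.384. Each of the Rag1, Rag2 and Dntt windows held an E box, as did 72.3% of all windows. The Rag1 window alone among the members held the E box form CAGGTG that E2A proteins bind (20.2% of all windows), starting 135 bases before the start. An Ikaros-type motif (25.6% of all windows) stood in the Rag1 window, starting 52 bases before the start, and in 1 of the Lig4 windows. The PU.1-type motif (28.3% of all windows) stood in the Rag2 window, starting 97 bases before the start, and in 1 of the Lig4 windows. It contains the ETS core GGAA, which 96.0% of all windows held. CCAAT boxes (37.4% of all windows) were found in the windows of Rag1, Dclre1c, Xrcc5 and Xrcc6, and GC boxes with the letters GGGCGG (35.7% of all windows) in those of Dclre1c, Xrcc6, Lig4, Xrcc4 and Nhej1 but of none of the 3 lymphoid genes. The FOXO motif GTAAACA (3.65% of all windows) was in none of the 10 windows of these genes. Such matches are descriptions of letters in these windows, not binding sites.

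Dntt is known for a core promoter that works through an initiator element in place of a TATA box. The letters of this initiator are CTCANTCT. On the strand of the gene they lie downstream of the window used above, inside the longest annotated Dntt transcript, at chr19:41029374-41029403 on the plus strand of GRCm38. Within the Dntt window itself the letters occur only on the opposite strand, starting at base 33 after the start, and 5.64% of all windows hold them on either strand. The 30 bases are shown from the GENCODE transcript, with the element in capitals.
Dntt initiator: acatcagagccCTCATTCTggagacaccac
The element begins at base 111 of the transcript Dntt-201, which is where the annotated transcript Dntt-203 starts, and Dntt-202 starts at base 108. Gene-level counts cannot tell these starts apart.

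The 3 lymphoid genes of the pathway fell to between 9.39% and 41.9% of their wild-type level in the knockout libraries, and none of the other 7 genes differed by more than 1.29-fold. By edgeR's quasi-likelihood test across all tested genes (adjusted p under 0.05), Rag1, Rag2, Dntt and Dclre1c fell, Xrcc6 rose and the other 5 members did not pass. The same test called 23.6% of all tested genes, 10.9% higher and 12.6% lower. DESeq2 called 4 members and 11.2% of its tested genes, and limma-voom 5 members and 23.4%. A fall of at least 2-fold was called for 3 of the 10 members and for 3.9% of all tested genes. The median log2 fold change was -0.13 over the members and 0.0021 over all tested genes. The values of the genotypes did not overlap for 7 of the 10 members, against 60.5% of all tested genes. In bulk samples, fewer cells that make a transcript and less of it per cell cannot be told apart.

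**Figure D1:**
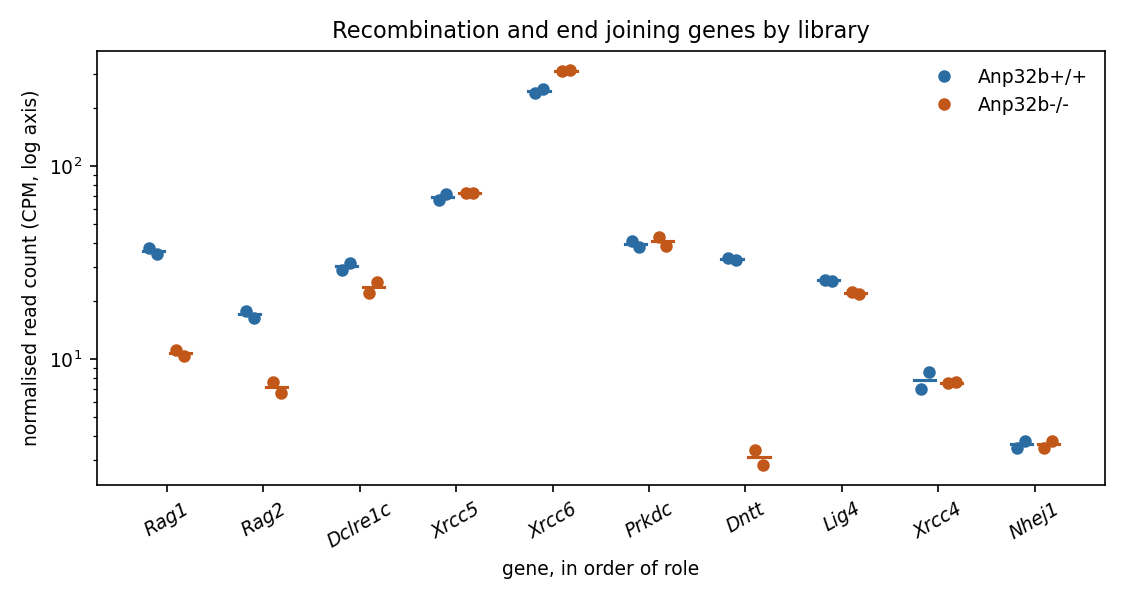
Normalised read counts (CPM, reads scaled to library size, log axis) of the 10 genes in order of role. Points are the 2 libraries of each genotype and lines their means; Dntt goes from 33.2 to 3.11 CPM, while the points of Prkdc, Xrcc4 and Nhej1 overlap.

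Library totals lay between 19581575 and 19758671 estimated reads, so depth was nearly even, and Anp32b, the gene deleted in the knockout, fell to 8.91% of its wild-type level (edgeR adjusted p = 2.27e-13, log2 fold change -3.49, SE 0.07). The B lineage was well represented in every library: the B cell receptor gene Cd79a stood at 1871 to 1929 CPM and the B cell factor gene Pax5 at 552.5 to 621.3 CPM. Of the markers Cd79a, Cd79b, Pax5, Ebf1, Blnk, Ptprc, Cd22 and Vpreb3, Cd22 rose and Ebf1 and Blnk fell. Thymocytes also make RAG and terminal transferase. Of their markers, the T cell genes Cd3d, Cd3e, Cd3g, Bcl11b and Themis stayed at or under 0.353 CPM in all 4 libraries. On this scale 3 reads are worth 0.151 to 0.155 CPM. Other markers of the list were higher. Cd247 was at 3.87 to 4.36 CPM, Cd8a at 0.873 to 1.51, Ptcra at 0.671 to 0.904 and Cd5 at 0.462 to 0.904 CPM. Cd28 reached 0.504 CPM and Cd8b1 0.413 CPM. The 14 thymocyte markers summed to 62.9 and 69.0 CPM in wild type against 97.3 and 92.4 CPM in knockout. Of 7 tested, Lat rose (34.99 and 38.4 CPM against 75.9 and 70.4 CPM), and Cd4 (3.77 and 2.87 CPM against 1.13 and 1.03 CPM) and Lck fell. The higher knockout sum rests on Lat: without it the remaining markers sum to less in both knockout libraries than in either wild-type library. The part of thymocytes in the results below was not tested. Markers of other cells moved with genotype: 17 of 18 neutrophil markers fell (summed level 668 and 679 CPM in wild type against 136 and 135 CPM in knockout), and all 4 Y-linked genes fell (156 and 173 CPM against 42.5 and 41.7 CPM). The part of these differences in the results below was not tested. Progenitor markers summed to 181 and 170 CPM in wild type against 150 and 141 CPM in knockout, with 1 of 7 tested (Notch1) lower. Notch1 was at 92.72 and 74.53 CPM against 59.65 and 54.68 CPM, and without it the sums of the genotypes overlap. Erythroid markers summed to 214 and 234 CPM in wild type against 241 and 246 CPM in knockout, without overlap. Of these markers, edgeR, DESeq2 and limma-voom called 0 of 9, of which 2 had an unadjusted p under 0.05 by edgeR.

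**Figure D2:**
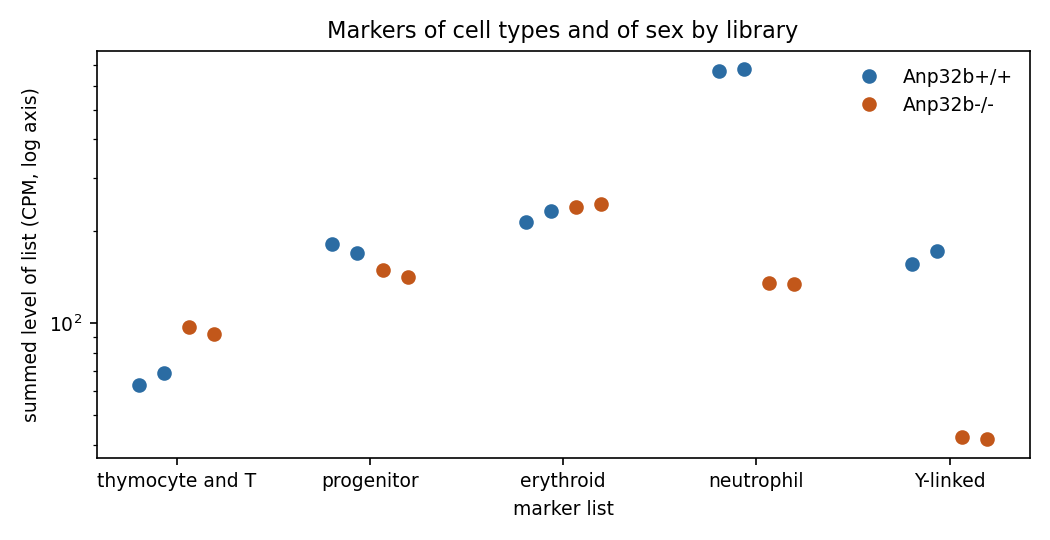
Summed level of each marker list (CPM, log axis) in the 4 libraries, coloured by genotype. Neutrophil and Y-linked sums are lower in both knockout libraries. Erythroid sums are 214 and 234 CPM in wild type against 241 and 246 CPM in knockout.

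Rag1, the catalytic subunit of the recombinase, was at 37.6 and 35.1 CPM in the wild-type libraries and at 11.1 and 10.4 CPM in the knockout libraries. The genotypes were far apart, with both knockout libraries far below either wild-type library. It fell 3.37-fold (edgeR adjusted p = 4.27e-09), with a log2 fold change of -1.75 (SE 0.09). Rag2, the partner subunit needed for cutting, stood at 17.8 and 16.4 CPM in the wild-type pair against 7.65 and 6.66 CPM in the knockout pair. It fell 2.39-fold (log2 fold change -1.26, SE 0.11, edgeR adjusted p = 1.48e-06), again without overlap. The genes face each other on chromosome 2 with 5.72 kb between their ends (Rag2 at 101624712 to 101632528, Rag1 at 101638252 to 101649532, GRCm38).

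The estimated falls of Rag1 and Rag2 differed in size. The reads of Rag1 were 2.11 and 2.14 times those of Rag2 in the wild-type libraries and 1.46 and 1.56 times in the knockout libraries. The ratio was thus lower in both knockout libraries, and their log2 fold changes were 0.497 apart, with 95% intervals of -1.94 to -1.57 for Rag1 and -1.499 to -1.014 for Rag2. The ratios of reads are given as a description, with no test.

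No neighbour of the recombinase locus was called. Iftap has exons in GENCODE that share 208 bases with Rag2 on the opposite strand and, through longer transcripts than those of RefSeq, 80 with Rag1. It was at 3.11 and 3.78 CPM in the wild-type pair against 2.82 and 2.995 CPM in the knockout pair, and did not pass the test (log2 fold change -0.24, edgeR adjusted p = 0.435). It had fewer reads than either Rag gene in each library. Traf6, 28.9 kb beyond Rag1 and the gene of a signalling ubiquitin ligase, had a log2 fold change of -0.16 (SE 0.06, adjusted p = 0.0607), and Commd9, 237 kb beyond, one of -0.12 (adjusted p = 0.329). Traf6 was called lower in 4 of 11 other settings of the analysis. Prr5l, between them, was under 1 CPM in every library and below the filter. On the Rag2 side the nearest listed genes, Lrrc4c (below the filter), Api5 (log2 fold change -0.06, adjusted p = 0.464) and Ttc17 (0.0042, adjusted p = 0.973), lie 3990 kb or more away.

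Dntt (chr19:41029275-41059525), which encodes terminal transferase, showed the deepest fall of the 10 genes. Its level was 33.6 and 32.8 CPM in wild type against 3.39 and 2.84 CPM in knockout, from 670 and 651 reads to 66 and 55. The knockout libraries thus kept 9.39% of the wild-type level (95% interval of the ratio 0.0794 to 0.111, log2 fold change -3.41, SE 0.11, edgeR adjusted p = 5.85e-11). Of the 9435 tested genes averaging 5 CPM or more, 9 had a lower log2 fold change than Dntt. Rag1 ranked 49 and Rag2 ranked 78 from the lowest in the same order. Over all 12123 tested genes the ranks from the lowest were 31 for Dntt, 212 for Rag1 and 373 for Rag2. The neighbours of Dntt on chromosome 19 moved much less. Blnk, the adaptor gene of pre-B receptor signalling that ends 35.1 kb before Dntt, fell by 0.28 on the log2 scale (SE 0.05, adjusted p = 0.00112), and Pik3ap1, 213 kb beyond it, fell by 0.28 (SE 0.06, adjusted p = 0.00596). Both calls were lost when either knockout library was left out (adjusted p = 0.0814 and 0.0802 for Blnk, 0.105 and 0.157 for Pik3ap1). Zfp518a (log2 fold change -0.08), Ccnj (0.22) and Tm9sf3 (-0.04) did not pass the test, and Tll2 was below the filter.

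The related polymerases did not pass the test. Polm and Poll encode polymerases mu and lambda, the other members of family X that fill gaps during end joining. Polm was at 28.3 and 28.4 CPM in the wild-type pair against 28.1 and 28.8 CPM in the knockout pair (log2 fold change 0.0035, 95% interval -0.15 to 0.16, edgeR adjusted p = 0.978). Poll was at 20.9 and 19.4 CPM in the wild-type pair against 21.9 and 23.03 CPM in the knockout pair (log2 fold change 0.16, 95% interval -0.02 to 0.34, adjusted p = 0.201). Reads of Dntt were 1.19 and 1.15 times those of Polm in the wild-type libraries and 0.121 and 0.0985 times in the knockout libraries.

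**Figure D3:**
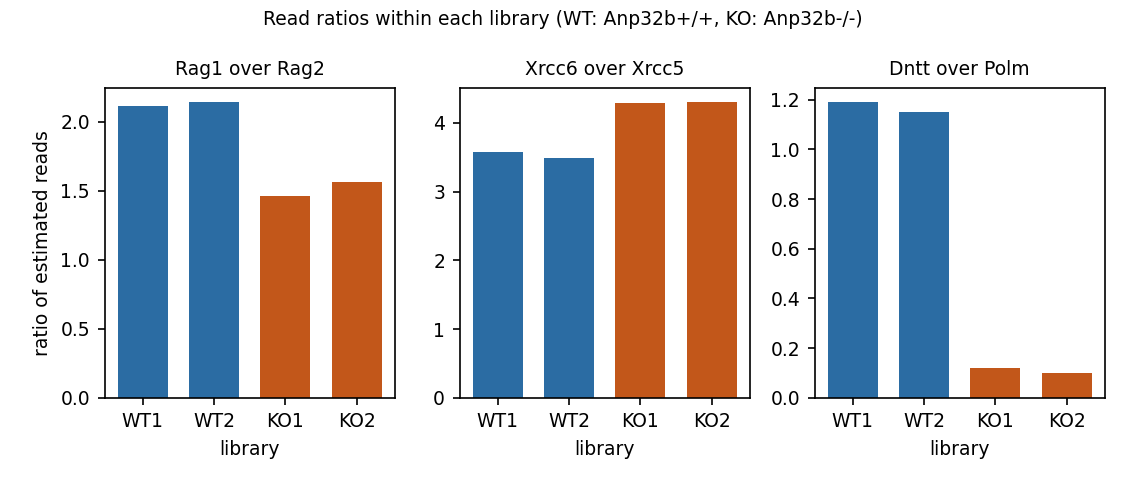
Ratio of estimated reads of 2 genes within each library, for Rag1 over Rag2, Xrcc6 over Xrcc5 and Dntt over Polm (bars start at 0). In the knockout libraries Rag1 over Rag2 and Dntt over Polm are lower, and Xrcc6 over Xrcc5 is higher, than in the wild-type libraries.

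Among the factors that bind and process broken ends, Xrcc6 rose and its partner did not pass the test. Xrcc6 (chr15:81987833-82040085), which encodes Ku70, was at 240 and 251 CPM in the wild-type pair against 313 and 314 CPM in the knockout pair. Both knockout libraries were higher, by 1.28-fold (log2 fold change 0.35, SE 0.05, edgeR adjusted p = 0.000161). Xrcc5 (chr1:72307417-72394953), which encodes Ku80, was at 67.1 and 72.0 CPM in the wild-type pair against 72.9 and 72.9 CPM in the knockout pair (log2 fold change 0.07, 95% interval -0.06 to 0.20, adjusted p = 0.45). Reads of Xrcc6 were 3.58 and 3.49 times those of Xrcc5 in wild type and 4.29 and 4.30 times in knockout, a difference without overlap that was not tested. The annotated exons of Xrcc6 share 344 bases with Desi1 on the opposite strand, and the strand setting of the counting is not given in the sources used here. The deposited values of Xrcc6 and of Desi1 are whole numbers in every library. Desi1 rose as well, by less (238 and 238 CPM against 266 and 268 CPM, log2 fold change 0.17, adjusted p = 0.0257), and without strand the reads of the shared bases cannot be told apart.

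Prkdc (chr16:15637444-15842239), the gene of the kinase DNA-PKcs, was at 41.0 and 38.3 CPM in the wild-type pair against 43.2 and 38.7 CPM in the knockout pair. The genotypes overlapped, with a log2 fold change of 0.05 (95% interval -0.11 to 0.21, edgeR adjusted p = 0.707). Dclre1c (chr2:3424061-3474211), the gene of the hairpin-opening nuclease Artemis, was at 29.2 and 31.5 CPM in the wild-type pair against 22.2 and 25.0 CPM in the knockout pair. It fell to 77.8% of the wild-type level (log2 fold change -0.36, SE 0.08, edgeR adjusted p = 0.00578). This call was lost with DESeq2 (adjusted p = 0.0908), with no filter on low counts (0.0845) and without knockout replicate 1 (-0.27, 0.129). Its exons share 357 bases with Suv39h2 on the opposite strand, and the deposited values of Dclre1c carry decimals in all 4 libraries. Suv39h2, which encodes a histone methyltransferase, was at 25.5 and 26.9 CPM in the wild-type pair against 21.3 and 23.6 CPM in the knockout pair (log2 fold change -0.23, adjusted p = 0.0613).

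None of the 3 genes of the ligation complex passed the test. Lig4 (chr8:9970020-9977680), the ligase gene, was at 25.9 and 25.6 CPM in the wild-type pair against 22.4 and 21.9 CPM in the knockout pair, lower in both knockout libraries, with a log2 fold change of -0.21 (SE 0.08, 95% interval -0.38 to -0.05) and an edgeR adjusted p of 0.0591. Lig4 did pass, as lower, under upper-quartile normalization (adjusted p = 0.034) and under a stricter filter at 10 CPM (0.0434). Xrcc4 (chr13:89848914-90089608), which stabilises the ligase, was at 7.03 and 8.62 CPM in the wild-type pair against 7.55 and 7.59 CPM in the knockout pair (log2 fold change -0.05, 95% interval -0.34 to 0.24, adjusted p = 0.843). Nhej1 (chr1:74967346-75125226), which encodes the XRCC4-like factor XLF, had the fewest wild-type reads of the 10 genes, 69 and 75 against 68 and 73 in knockout (log2 fold change 0.0028, 95% interval -0.39 to 0.40, adjusted p = 0.993). That interval spans 0.761-fold to 1.32-fold, and a smaller change of Nhej1 was not detectable at this depth.

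**Figure D4:**
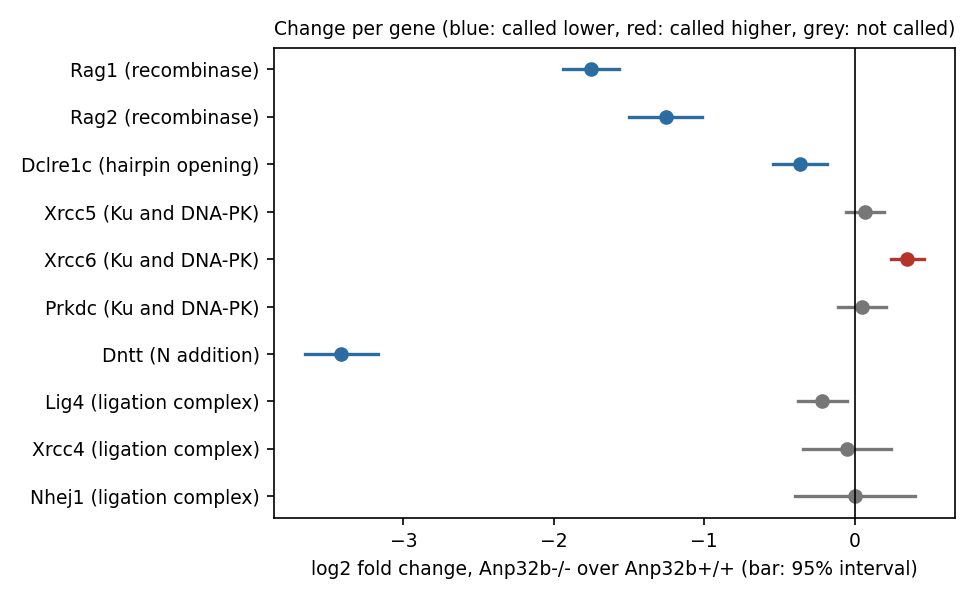
Log2 fold change of each gene, knockout over wild type, with its 95% interval from the edgeR fit, in order of role. Dntt, Rag1, Rag2 and Dclre1c lie left of 0 and Xrcc6 right of it; the interval of Lig4 (-0.38 to -0.05) leaves out 0, but its adjusted p is 0.0591.

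Levels of different genes were ranked only per kilobase of annotated transcript. The ratios of reads given above are not corrected for length and serve to compare libraries, not genes. With the median length of the coding transcripts in GENCODE, the wild-type order in CPM per kilobase was Xrcc6 (263 ± 8.10, SD, n = 2), Xrcc5 (27.2 ± 1.35), Xrcc4 (18.5 ± 2.66), Dntt (16.3 ± 0.28), Dclre1c (8.19 ± 0.45), Rag2 (6.48 ± 0.38), Lig4 (6.32 ± 0.05), Rag1 (5.49 ± 0.27), Nhej1 (3.44 ± 0.21) and Prkdc (3.13 ± 0.15). Xrcc4 and Dntt, and likewise Rag2 and Lig4, differed by less than the larger SD of the pair. Several genes have short annotated transcripts, so the scale depends on the length used: with the longest transcript Xrcc6 was at 74.6 and Xrcc4 at 5.08 CPM per kilobase. In the knockout libraries Dntt (1.53 ± 0.19), Rag1 (1.63 ± 0.08) and Rag2 (2.71 ± 0.26) were the lowest of the 10 genes, and they were so with either length. In wild type, Nhej1 and Prkdc had been the lowest with either length.

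Few genes of the wider repair network were called. The lists below were drawn up with earlier results of these data known, and each is set against the 10.9% of tested genes called higher and 12.6% called lower. Of 17 tested accessory factors of end joining, 2 rose (11.8%) and 1 fell (5.88%), with a median log2 fold change of 0.02. Slx4, a nuclease scaffold gene, rose by 0.30 (SE 0.07, edgeR adjusted p = 0.0042), Tdp1, which repairs blocked 3′ ends, rose by 0.17 (SE 0.06, 0.0452), and Wrn, a RecQ helicase gene, fell by 0.33 on the log2 scale (SE 0.07, 0.00376). Without knockout replicate 2 none of these 3 was called (adjusted p = 0.152, 0.391 and 0.149). With no filter on low counts none was called either, and Tdp1 lost its call in 7 of the 11 alternatives, among them DESeq2 (0.243) and the fits without wild-type replicate 2 (0.0779) or knockout replicate 1 (0.16). None of 18 genes of break signalling was called by edgeR, with a median of 0.01, although 2 had an unadjusted p under 0.05. DESeq2 and limma-voom called 0 of them, while 3 were called higher without wild-type replicate 1. The one with the most reads, the histone gene H2ax, was at 500 ± 33.7 CPM in wild type against 517 ± 3.57 CPM in knockout (log2 fold change 0.05, adjusted p = 0.586).

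Alternative end joining and homologous recombination likewise gave few calls. Of 10 alternative end joining genes, 1 fell and none rose: Rbbp8, which encodes the resection factor CtIP, fell by 0.21 on the log2 scale (SE 0.06, edgeR adjusted p = 0.0193). Leaving out knockout replicate 1 (adjusted p = 0.181) or 2 (0.195) ended that call, as did DESeq2 (0.211) and no filter (0.0595). Of 15 homologous recombination genes, 1 rose and none fell: Xrcc3, which acts in strand exchange, rose by 0.26 (SE 0.07, adjusted p = 0.0155), which leaving out knockout replicate 1 (0.0668) or 2 (0.216), DESeq2 (0.178) and no filter (0.064) ended. Of 8 tested genes of class switching and somatic mutation, Apobec3 rose (0.17, SE 0.05, edgeR adjusted p = 0.0236) and Msh6 fell (-0.16, SE 0.05, edgeR adjusted p = 0.0435). These calls are 12.5% higher and 12.5% lower, near the 10.9% and 12.6% of all tested genes. Leaving out knockout replicate 1 or 2 ended the calls of Apobec3 (0.183 and 0.34) and of Msh6 (0.248 and 0.346), and leaving out wild-type replicate 1 ended that of Msh6 (0.0705). Apobec3 also lost its call under upper-quartile normalization (0.0552) and no filter (0.0704), and Msh6 under DESeq2 (0.267) and no filter (0.106).

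**Figure D5:**
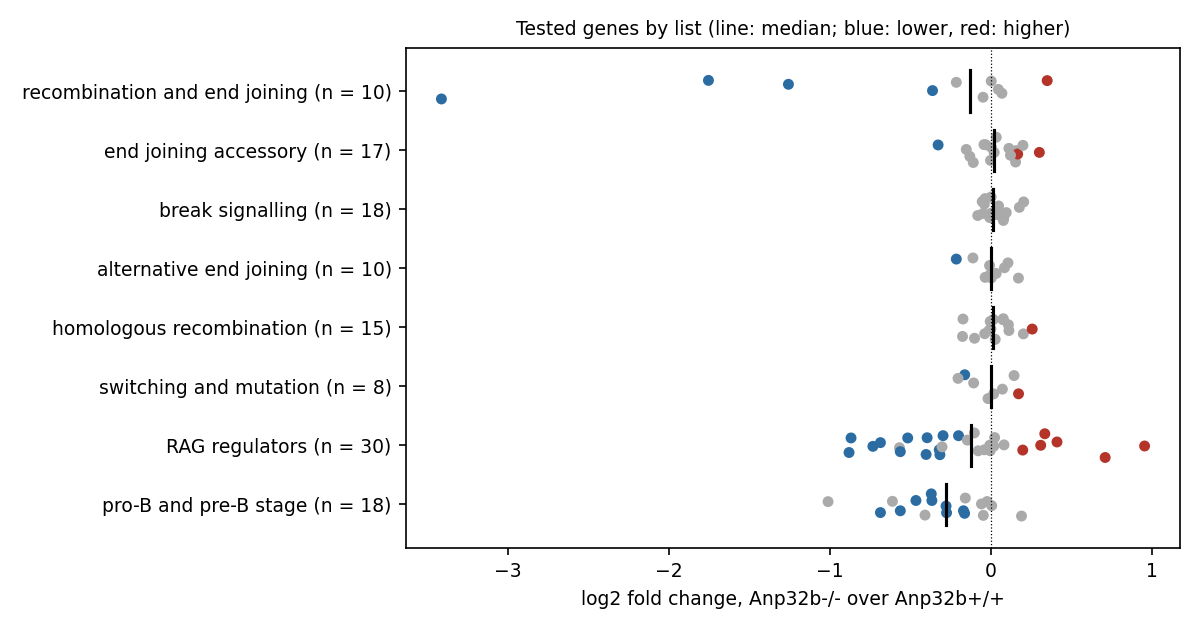
Log2 fold change of every tested gene of 8 lists, with the list medians as lines; colours mark genes called lower or higher by edgeR. The falls of Dntt, Rag1 and Rag2 lie beyond every gene of the other repair lists, which stay within -0.33 to 0.30.

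Regulators linked to RAG expression, most of them transcription factors, changed in both directions. Of 30 tested genes, 12 fell (40%) and 6 rose (20%), with a median log2 fold change of -0.12. Leaving out knockout replicate 1 left 7 falls, and leaving out knockout replicate 2 left 6 falls and 3 rises. Foxo1, a factor known to drive Rag transcription in early B cells, was at 127 and 124 CPM in the wild-type pair against 68.4 and 68.9 CPM in the knockout pair. It fell by 0.87 on the log2 scale (SE 0.05, edgeR adjusted p = 3.62e-08). Erg, an ETS factor gene of early B cells, fell by 0.69 (SE 0.06) and Bach2, a repressor gene of plasma cell fate, by 0.73 (SE 0.07). Klf2, a quiescence factor gene, rose by 0.96 on the log2 scale (SE 0.05, adjusted p = 9.68e-09), between means of 226 ± 7.54 and 438 ± 3.78 CPM. Spi1, which encodes the PU.1 of the series title, did not pass the test (65.4 ± 4.203 against 66.4 ± 2.50 CPM, log2 fold change 0.02, 95% interval -0.11 to 0.16, adjusted p = 0.833). Neutrophils also express Spi1, and the part of the lower neutrophil markers (median -2.00) in these values was not tested.

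A list of stage genes of pro-B and pre-B cells was read beside Rag1, Rag2 and Dntt. It also holds progenitor markers (Kit, Flt3, Cd34 and Il7r) and B lineage markers (among them Cd79a and Cd79b). Whether its genes share a window of expression with Rag1, Rag2 and Dntt was not tested. Of 18 tested genes, 9 fell (50%), none rose and 9 did not pass the test, with a median log2 fold change of -0.28. Leaving out knockout replicate 1 left 5 falls, and leaving out knockout replicate 2 left 4. Erg, which like Lef1 is counted in the list of RAG regulators too, had the smallest p of this list. Vpreb2 (-0.46, SE 0.05), Lef1 (-0.56, SE 0.06) and Vpreb1 (-0.37, SE 0.05) came next (edgeR adjusted p at most 0.000116). Vpreb1 and Vpreb2 encode surrogate light chain parts that pair with a newly made heavy chain. Of the genes that did not pass, Vpreb3 was at -0.06 (edgeR adjusted p = 0.526). Il2ra was higher in both knockout libraries (0.19, edgeR adjusted p = 0.0921). No row for a rearranging receptor segment was analysed here, so the products of the recombinase were not measured.

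The genes nearest in pattern were found by the distance of log2 CPM centred over the 4 libraries, among 9434 other tested genes averaging 5 CPM or more. Over 4 libraries in 2 groups this distance is a description only. Nearest to Dntt were Anp32b itself (distance 0.203), Mmrn1 (0.368) and Xlr4a (0.401), the last of a family with near-identical copies. Nearest to Rag1 were Trem1, a receptor gene of neutrophils and monocytes (0.117), the cytokine gene Ltb (0.141) and Ptpn14 (0.142). Nearest to Rag2 were the oncogene Myc (0.0956), Serpina3g (0.1) and Sned1 (0.101). For Dclre1c they were Mapk1ip1 (0.0298), LTO1 (0.0345) and Gas7 (0.0401), and for Xrcc6 they were Slc25a10 (0.0168), Tom1 (0.0176) and Asns (0.0249).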

How the data were processed

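RNA-seq was available for 4 libraries, 2 per genotype by the titles and genotype labels. The deposited files hold an estimated count per gene symbol, per the file headers, with no further scaling of the values by the authors recorded there. Values carry decimals, and per library 64.5% to 65.6% were whole. HISAT2 2.0.4 and DESeq2 1.4.5, with the build GRCm38, come from the submitters' processing notes. Which tool, annotation and strand setting produced the counts is not given in the sources used here. Counts were rounded to whole numbers.

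Genes were tested with edgeR 4.0.16 (R 4.3.3), quasi-likelihood, on genotype alone, after filterByExpr at a minimum count of 10 and TMM scaling, with Benjamini-Hochberg adjustment over 12123 genes. A gene was called where its adjusted p was under 0.05. TMM factors also scale the CPM. The procedure was tested on simulated counts. The 11 alternatives were RLE and upper-quartile normalization, no filter, a filter of 10 CPM, DESeq2 1.42.0, limma-voom (limma 3.58.1), the replicate number as a block, and leaving out each library. Where a lone library remains, it is assumed to vary like the other genotype's pair. The pairs differed in noise, with a chi-square per degree of freedom of 5.29 for wild type and 2.09 for knockout. Fits without a knockout library thus take their spread from the noisier wild-type pair. Whether calls lost in those fits depend on the library left out or on this spread was not tested.

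All 10 members matched a RefSeq gene of GRCm38.p6, and 9 matched its promoter table. The members, lists and tests were chosen with earlier results of these data known. Genes named are the members, Anp32b, Spi1, Foxo1, Polm, Poll, up to 4 called genes of smallest p per list (or its most abundant gene), up to 3 neighbours each side of Rag1-Rag2 and Dntt, and the 3 genes nearest in pattern to each called member. Iftap, Desi1 and Suv39h2 were added for their shared exons, and Notch1, Lat, Lck and other single markers after their values were seen.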

Additional observations from a re-analysis of the deposited data

How the results depend on the processing

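Rag1, Rag2 and Dntt were called lower and Xrcc6 higher under all 11 alternatives, with log2 fold changes of -1.81 to -1.70, -1.36 to -1.16, -3.54 to -3.29 and 0.32 to 0.38. The number of members called lower was 3 to 5, and 3 to 4 over the fits without 1 library. Over all genes, 2856 were called, against 1291 with no filter, 1394 with DESeq2 and 951 to 3388 over the fits without 1 library. The replicate number as a block called 3423 genes and 5 members lower, Lig4 being the added one (edgeR adjusted p = 0.0433). With this block, 10 genes of the pro-B and pre-B list were called lower and 1 higher. The labels do not say that the number marks a shared animal or day, and same-numbered libraries deviated together only weakly (correlation 0.0349 over genes), so no pairing was assumed. Genes near 0 changed sign. With upper-quartile normalization the log2 fold change was -0.027 for Nhej1, -0.0062 for Spi1, -0.027 for Polm and -0.026 for Ttc17, and with a filter of 10 CPM it was -0.015 for Polm and -0.014 for Ttc17. Over the fits without 1 library it ran from -0.031 to 0.12 for Prkdc, -0.19 to 0.10 for Xrcc4, -0.059 to 0.064 for Nhej1, -0.044 to 0.092 for Spi1, -0.014 to 0.025 for Polm, -0.022 to 0.12 for H2ax, -0.020 to 0.032 for Ttc17 and -0.11 to 0.030 for Tm9sf3. The causes were not tested. Xrcc4 and Nhej1 have no value with the filter of 10 CPM. Upper-quartile normalization moved the median of all tested genes to -0.028. Depth limited Nhej1 (SE 0.18, 68 to 75 reads a library) most among the members, then Xrcc4 (SE 0.14).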
